A study of Rattus norvegicus with 29 samples.

Results

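Plasma levels of 8 mature microRNAs (miRNAs), the 5p and 3p arms of miR-21, miR-146a, miR-146b and miR-155, were examined in 29 rats. The members were all rows of the deposited count matrix that carried one of these 4 stems, whatever the arm, and they were 8 of its 754 rows. All 8 passed the filter on low counts, which left 751 miRNAs for testing. The rats were adult male Sprague-Dawley rats, and tail-vein blood was drawn under isoflurane 48 h after surgery. Of these, 10 were sham operated without an impact and 19 received a traumatic brain injury (TBI) by lateral fluid percussion. The injured rats were split by video-EEG in the seventh month into 10 without epilepsy (TBI-) and 9 with epilepsy (TBI+), so the outcome was read long after the blood was drawn. UEF contributed 4 sham, 4 TBI- and 4 TBI+ rats, Monash 3, 3 and 2, and UCLA 3, 3 and 3. The sites also differed in rat supplier and, per the study's methods, in care around surgery, which cannot be told apart from site here. The analgesic was buprenorphine at UEF and Monash, and at UCLA flunixin meglumine, an anti-inflammatory drug. Only UCLA gave chow with an antibiotic (trimethoprim sulfamethoxazole), for 3 days after injury. Housing before surgery and extra feeding after it also differed. Each library was the plasma of 1 rat from pooled aliquots, and 1 further sequenced rat that the study excluded was not analysed here.

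miRNA counts summed to between 1162307 and 5223469 per rat, with a median of 2713557. Levels are given as CPM (a miRNA's counts scaled to a common library size) after TMM scaling, a library-size correction whose factor ran from 0.333 in UEF sham rat 3 to 1.76 in UEF TBI+ rat 4. UEF sham rat 3 stood apart, with 55.1% of its counts from the liver miRNA miR-122-5p and 658 miRNAs at 10 or more counts, against a median of 726 over all rats. In bulk plasma a lower CPM can reflect less of a miRNA or more of the others, and fewer cells of a type releasing a miRNA cannot be told apart from less released per cell.

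Mature miRNAs are cut from the 2 arms of a hairpin precursor, and each guides silencing of mRNAs that pair with its seed, bases 2 to 8 from the 5′ end. miR-146a-5p and miR-146b-5p are induced through NF-kB and dampen Toll-like receptor signalling by repressing TRAF6 and IRAK1. miR-155-5p is made from a non-coding host transcript in activated macrophages and lymphocytes and represses SOCS1, a brake on cytokine signalling. miR-21-5p is abundant in many cells, rises in inflamed tissue and represses PDCD4, a tumour suppressor that also acts in inflammatory signalling. After brain injury these miRNAs are studied in glia and infiltrating leukocytes.

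The 8 mature sequences, all matched in RefSeq, are shown with the seed in capitals because the members are grouped by it, and rno marks the rat.
rno-miR-21-5p: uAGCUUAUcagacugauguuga
rno-miR-21-3p: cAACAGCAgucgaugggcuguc
rno-miR-146a-5p: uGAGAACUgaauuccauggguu
rno-miR-146b-5p: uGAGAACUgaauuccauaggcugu
rno-miR-146a-3p: aCCUGUGAaguucaguucuuu
rno-miR-146b-3p: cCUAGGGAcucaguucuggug
rno-miR-155-5p: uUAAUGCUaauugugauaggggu
rno-miR-155-3p: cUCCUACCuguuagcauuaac
Both miR-146 5p arms had the same seed, and none of the other members shared a seed with any of the 671 tested miRNAs for which RefSeq gave a mature sequence. Counted from the 5′ end, miR-146b-5p differed from miR-146a-5p by G18A and U21C and ended in 2 further bases, with 20 of the first 22 positions identical. Reads trimmed short of those bases could be assigned to either, so their separate counts carry that uncertainty. The 3p arms of miR-146a and miR-146b had different seeds.

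The hairpins are shown with both mature arms in capitals, to place the arms whose levels are compared further on. Positions are those of the RefSeq assembly GRCr8, whereas the deposited counts were made on Rnor_6.0.
Mir21: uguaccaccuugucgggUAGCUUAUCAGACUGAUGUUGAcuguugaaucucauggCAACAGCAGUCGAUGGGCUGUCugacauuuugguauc
Mir146a: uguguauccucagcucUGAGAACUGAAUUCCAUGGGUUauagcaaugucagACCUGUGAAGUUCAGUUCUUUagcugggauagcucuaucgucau
Mir146b: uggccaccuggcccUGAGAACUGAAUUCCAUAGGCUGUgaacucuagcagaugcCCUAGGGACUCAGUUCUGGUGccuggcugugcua
Mir155: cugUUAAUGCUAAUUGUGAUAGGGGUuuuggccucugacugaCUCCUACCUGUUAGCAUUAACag
Mir21 lay on the minus strand at chr10:71902600-71902691, between Tubd1 and Vmp1, without overlapping an annotated gene. Mir146a lay on the minus strand at chr10:28349996-28350090, within an annotated long non-coding RNA gene. Mir146b lay on the plus strand at chr1:255144860-255144947, within the span of the protein-coding gene C1h10orf95. Mir155 lay on the plus strand at chr11:37261114-37261178, within Mir155hg, its non-coding host gene.

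The 5p arms were abundant plasma miRNAs and the 3p arms were scarce. By mean CPM, miR-146a-5p ranked 16 and miR-21-5p 19 of 751, followed by miR-146b-5p at 61 and miR-155-5p at 76. Of the 3p arms, miR-21-3p ranked 372, miR-146b-3p 482, miR-146a-3p 701 and miR-155-3p 747. miR-146a-5p made up 1.18% of a rat's counts on average and miR-21-5p 0.999%, against 0.146% for miR-146b-5p and 0.0811% for miR-155-5p. The 8 members together held between 1.33% and 3.98% of a rat's counts, with a median of 2.35%. These are read shares, and differences between miRNAs also include how well each sequence is captured in library preparation.

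Over all 29 rats, miR-146a-5p lay between 5869 and 19811 CPM with a median of 11583. miR-21-5p lay between 3770 and 34318 CPM with a median of 9380. The range of miR-21-5p was set at its upper end by UEF sham rat 3, in which it made up 1.14% of counts, inside the range of the other rats (0.448% to 1.82%), before the small TMM factor was applied. miR-146b-5p ran from 503 to 3270 CPM with a median of 1386, and miR-155-5p from 407 to 2016 CPM with a median of 747. The coefficient of variation between rats was 30.9% for miR-146a-5p, 40.8% for miR-155-5p, 41.7% for miR-146b-5p and 57.7% for miR-21-5p, against a median of 47.5% over all miRNAs tested. Of the 3p arms, miR-21-3p ran from 15.1 to 74.0 CPM, miR-146b-3p from 5.49 to 82.4 CPM and miR-146a-3p from 2.14 to 18.1 CPM. miR-146a-3p therefore rested on 6 to 46 counts per rat and miR-146b-3p on 7 to 238.

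miR-155-3p, the scarcer strand of the miR-155 hairpin, was listed at 0 in 15 rats and at 5 to 39 counts in the other 14. The matrix held 548 zeros but 102 values between 1 and 4 among its 21866 values, so a listed 0 may not be a sampled 0, and no fold change is given for this arm. It was listed at 0 in 5 of 10 sham, 4 of 10 TBI- and 6 of 9 TBI+ rats. At UCLA it was above 0 in all 3 sham rats and at 0 in all 3 TBI+ rats. The other sites did not share this pattern. At UEF it was at 0 in 3 of 4 sham, 1 of 4 TBI- and 2 of 4 TBI+ rats. At Monash it was at 0 in 2 of 3 sham, 2 of 3 TBI- and 1 of 2 TBI+ rats.

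**Figure D1:**
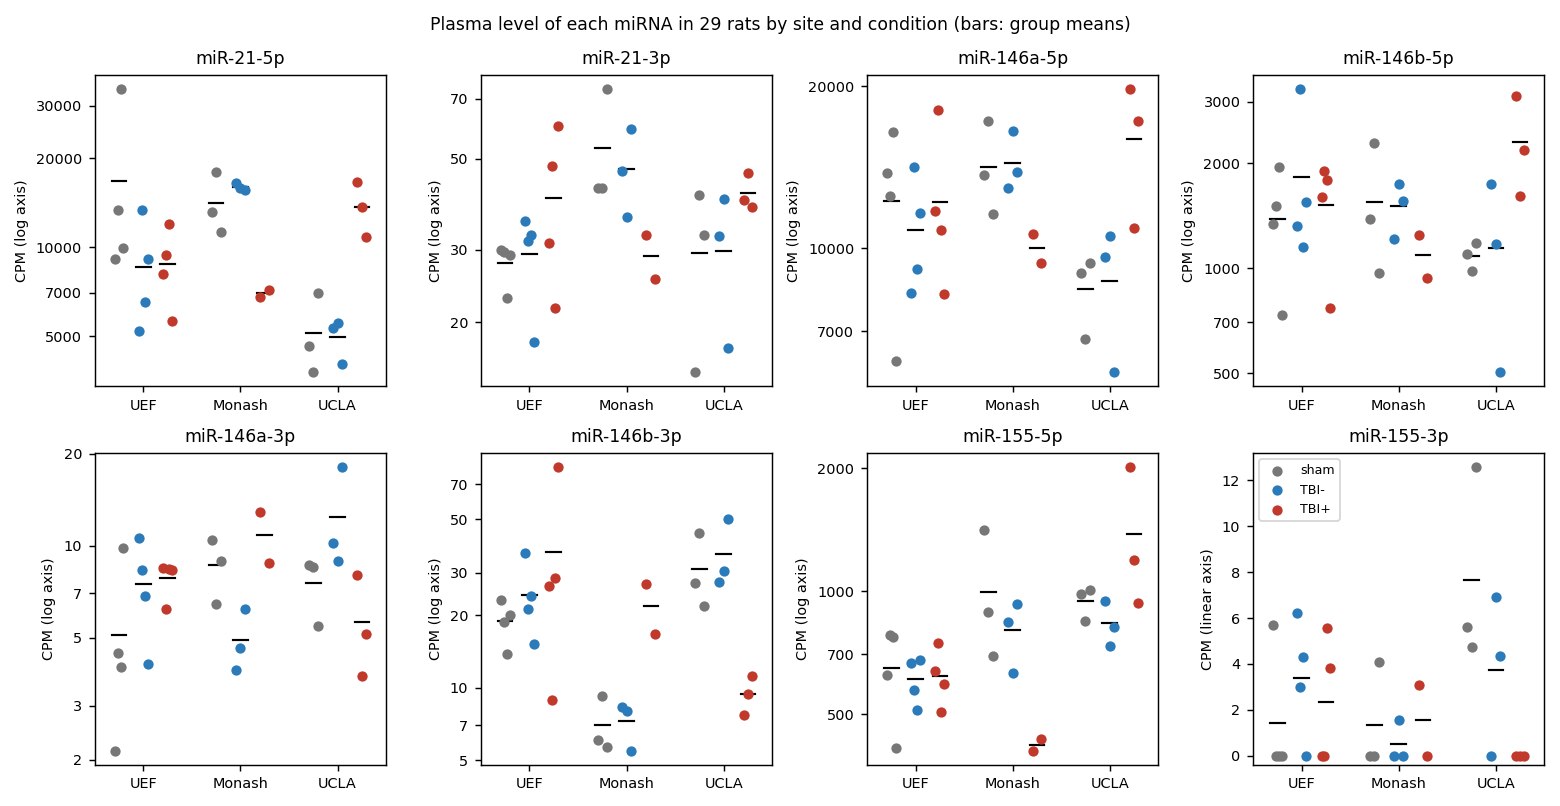
TMM-scaled CPM of each of the 8 miRNAs in each of the 29 rats, by site on the horizontal axis and coloured by condition; horizontal bars are group means. The vertical axes are logarithmic except for miR-155-3p, which is linear because 15 rats are at 0. Sham, TBI- and TBI+ rats overlap over all sites together, while at UCLA the TBI+ rats lie above the TBI- rats in miR-21-5p and below them in miR-146b-3p.

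The first comparison asked whether the members differed between injured and sham-operated rats at 48 h. None did in edgeR's quasi-likelihood test with site in the model: 0 of 8 were called at an adjusted p below 0.05, where 9 of all 751 miRNAs (1.2%) were, and 0 of 8 were below 0.05 before adjustment, where 83 of 751 were. DESeq2 also called 0 members. The members' median log2 fold change, with the fitted value of miR-155-3p included, was 0.088, against 0.025 over all miRNAs tested.

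miR-21-5p lay between 3770 and 34318 CPM in sham rats (median 10575) and between 4017 and 16578 CPM in TBI rats (median 9108). The TBI range lay inside the sham range. Its log2 fold change was -0.23 ± 0.29 (SE), with a 95% interval of -0.81 to 0.35 (edgeR adjusted p = 0.859). Without UEF sham rat 3 it was 0.083 (adjusted p = 0.989), so its sign rested on that library.

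miR-146a-5p had medians of 12041 CPM in sham (6155 to 17250) and 10909 CPM in TBI rats (5869 to 19811). The log2 fold change was 0.083 ± 0.20 (SE) and the 95% interval -0.32 to 0.48. miR-155-5p had medians of 814 CPM in sham (412 to 1410) and 680 CPM in TBI rats (407 to 2016), with a log2 fold change of -0.14 ± 0.19 (SE) and an interval of -0.54 to 0.25. The groups overlapped for both.

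miR-146b-5p had medians of 1261 CPM in sham (735 to 2292) and 1559 CPM in TBI rats (503 to 3270), and its log2 fold change was 0.25 ± 0.25 (SE). With the hemolysis ratio of miR-451-5p to miR-23a-3p as a covariate it was -0.12 (edgeR adjusted p = 0.984), so its sign depended on that term. The 3p arms gave 0.093 ± 0.20 (SE) for miR-21-3p, 0.23 ± 0.30 for miR-146a-3p and 0.34 ± 0.33 for miR-146b-3p. The smallest adjusted p of the members was 0.804.

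Sums of blood and tissue marker miRNAs, none at 0 in all rats, overlapped between sham and TBI rats in every set and were not tested. The 5 red-cell miRNAs summed to 21.95% to 43.1% of counts in injured rats and 6.82% to 37.1% in sham rats. The 2 liver miRNAs summed to 1.01% to 24.3% after TBI against 2.13% to 57.5% after sham surgery, and the 5 brain miRNAs to 0.557% to 1.23% against 0.113% to 0.920%. Platelet and myeloid miRNAs (4) ranged from 2.47% to 11.3% against 1.06% to 6.85%, the lymphocyte miRNA miR-150-5p from 0.800% to 7.04% against 0.695% to 5.82%, and muscle miRNAs (3 rows) from 0.0313% to 4.01% against 0.0310% to 3.23%. Their part in the members' values was not tested.

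The second comparison asked whether the members at 48 h differed between rats that later had epilepsy and those that did not. Over the 3 sites together edgeR called 0 of 8 members and 0 of 751 miRNAs (0%), and 0 members and 18 miRNAs were below 0.05 before adjustment. DESeq2 likewise called 0 members. The members' median log2 fold change (TBI+ minus TBI-) was 0.19, against -0.0021 over all miRNAs tested.

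miR-21-5p had a median of 7803 CPM in TBI- rats (4017 to 16494) and 9380 CPM in TBI+ rats (5642 to 16578), with a log2 fold change of 0.29 ± 0.35 (SE) and a 95% interval of -0.42 to 1.00. miR-146a-5p had medians of 11075 CPM (5869 to 16503) and 10909 CPM (8224 to 19811), with a log2 fold change of 0.27 ± 0.23. miR-155-5p had medians of 708 CPM (511 to 949) and 639 CPM (407 to 2016), with 0.093 ± 0.23. The outcome groups overlapped in each, and every member's edgeR adjusted p was 0.998.

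Against sham rats, the same 10 of which serve both contrasts, 0 of 8 members were called in TBI- rats (0.133% of all miRNAs) and 0 of 8 in TBI+ rats (0.533%). The log2 fold change of miR-21-5p was -0.38 in TBI- and -0.084 in TBI+ rats, and that of miR-146a-5p -0.053 and 0.22. miR-146b-5p gave 0.17 and 0.32, and miR-155-5p -0.19 and -0.097.

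**Figure D2:**
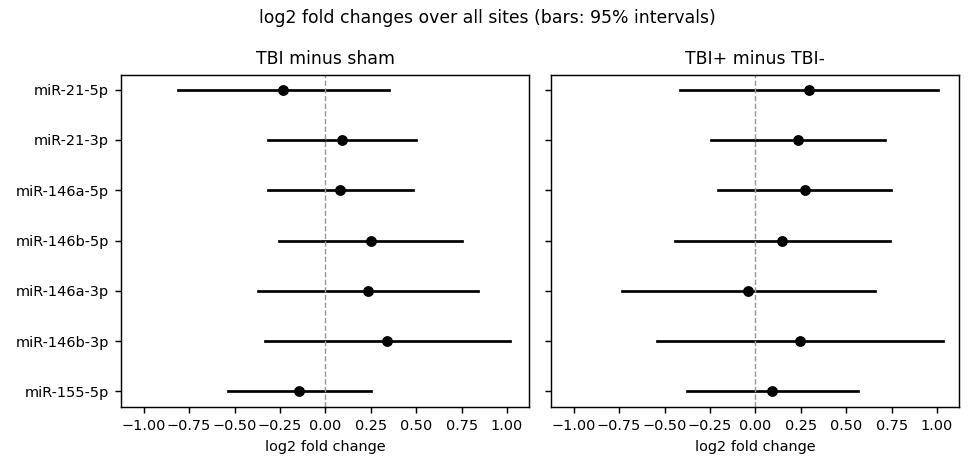
log2 fold changes of 7 members, with 95% intervals from edgeR, for TBI minus sham (left) and TBI+ minus TBI- (right) with all 3 sites in 1 model; miR-155-3p is left out because it is listed at 0 in 15 rats. Every interval includes 0, and the widest are those of miR-146b-3p.

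In the test of all 3 sites together edgeR called 2 of 8 members, miR-146b-3p (adjusted p = 0.0412) and miR-155-5p (adjusted p = 0.0440). Of all miRNAs 14.8% were called in that test. Both calls were near the threshold. With miR-28-3p as the library size both were lost (adjusted p = 0.121 and 0.0780). Both were also lost in TBI rats alone (adjusted p = 0.357 and 0.0922) and with a replicate block (0.0945 and 0.124). Replicate numbers did not pair the rats, so the fit with that block cannot decide on these calls. The call of miR-155-5p was lost with the hemolysis ratio of miR-451-5p to miR-23a-3p as a covariate (adjusted p = 0.0543) and in sham rats alone (0.485). That of miR-146b-3p was lost in 20 of 29 fits that each left out 1 rat (adjusted p up to 0.123). It held only without UEF sham 4, UEF TBI- 3, UEF TBI+ 2, Monash TBI+ 1 or 2, UCLA TBI- 3 or any UCLA TBI+ rat. That of miR-155-5p was lost in 9 of 29 (up to 0.0927): without UEF sham 4, UEF TBI- 3, UEF TBI+ 3 or 4, Monash sham 3, Monash TBI- 2, UCLA sham 3, or UCLA TBI+ 1 or 2.

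miR-155-5p was lowest at UEF and highest at UCLA. It lay between 412 and 782 CPM at UEF (median 631), 407 and 1410 CPM at Monash (median 768) and 736 and 2016 CPM at UCLA (median 949). The UEF and UCLA rats overlapped between 736 and 782 CPM. UEF minus UCLA was -0.75 ± 0.22 (SE) on the log2 scale (edgeR adjusted p = 0.0234), the 1 member called in a comparison in which 9.32% of all miRNAs were. Without UCLA TBI+ rat 1, the highest of the 29 rats at 2016 CPM, it was -0.57 (adjusted p = 0.0546). In sham rats alone it was -0.57 (adjusted p = 0.573) and in TBI rats alone -0.80 (adjusted p = 0.0630). The neighbouring sites did not differ beyond their spread, with -0.31 ± 0.23 for UEF minus Monash and -0.44 ± 0.25 for Monash minus UCLA.

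miR-146b-3p was lowest at Monash. It lay between 8.92 and 82.4 CPM at UEF (median 22.2), 5.49 and 27.0 CPM at Monash (median 8.15) and 7.71 and 50.0 CPM at UCLA (median 27.2). The Monash sham and TBI- rats reached at most 9.24 CPM, while both Monash TBI+ rats and all but 1 of the UEF rats were above it. UEF minus Monash was 1.30 ± 0.40 (SE) on the log2 scale (edgeR adjusted p = 0.0389), the 1 member called where 9.99% of all miRNAs were. This call was lost, with adjusted p between 0.0530 and 0.103, when any of 15 rats was left out: UEF sham 1 and 2, UEF TBI- 1 and 4, UEF TBI+ 1, 3 and 4, the 3 Monash sham, the 3 Monash TBI-, UCLA sham 1 and UCLA TBI- 1. It was also lost with upper-quartile scaling (adjusted p = 0.0506) and with miR-28-3p as the library size (adjusted p = 0.127). Monash minus UCLA was -1.34 ± 0.43 (adjusted p = 0.0612), in a comparison with 0 of 8 members and 5.46% of all miRNAs called. DESeq2 called that difference (adjusted p = 0.0120), and edgeR did without UEF TBI+ 2, Monash TBI+ 1 or any UCLA TBI+ rat (adjusted p 0.0241 to 0.0392).

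The other members were not called between sites in the model with TMM scaling and all 751 miRNAs. miR-21-5p had medians of 9244 CPM at UEF, 14354 CPM at Monash and 5549 CPM at UCLA, and Monash minus UCLA was 0.78 ± 0.37 (SE) on the log2 scale (edgeR adjusted p = 0.238). It was called with miR-28-3p as the library size (0.82, adjusted p = 0.0344). With only miRNAs at 100 or more counts in every rat tested, it was called for Monash minus UCLA (0.71, adjusted p = 0.0291), for UEF minus UCLA (0.53, adjusted p = 0.0434) and for the 3 sites together (adjusted p = 0.0317). miR-21-3p was lower at UEF than at Monash by -0.51 ± 0.23 (adjusted p = 0.156). miR-146a-5p and miR-146b-5p, the members that share a seed, differed between sites by at most 0.33 in size.

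Marker miRNA sums had different ranges at the 3 sites, which overlapped and were not tested. The 2 liver miRNAs summed to 1.94% to 57.5% of counts at UEF, 2.62% to 13.6% at Monash and 1.01% to 3.40% at UCLA. The 5 red-cell miRNAs summed to 6.82% to 40.7%, 19.7% to 34.2% and 27.7% to 43.1%, and the muscle miRNAs to 0.0310% to 3.39%, 0.0603% to 4.01% and 0.0313% to 0.0931%. Their part in the site differences was not tested.

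**Figure D3:**
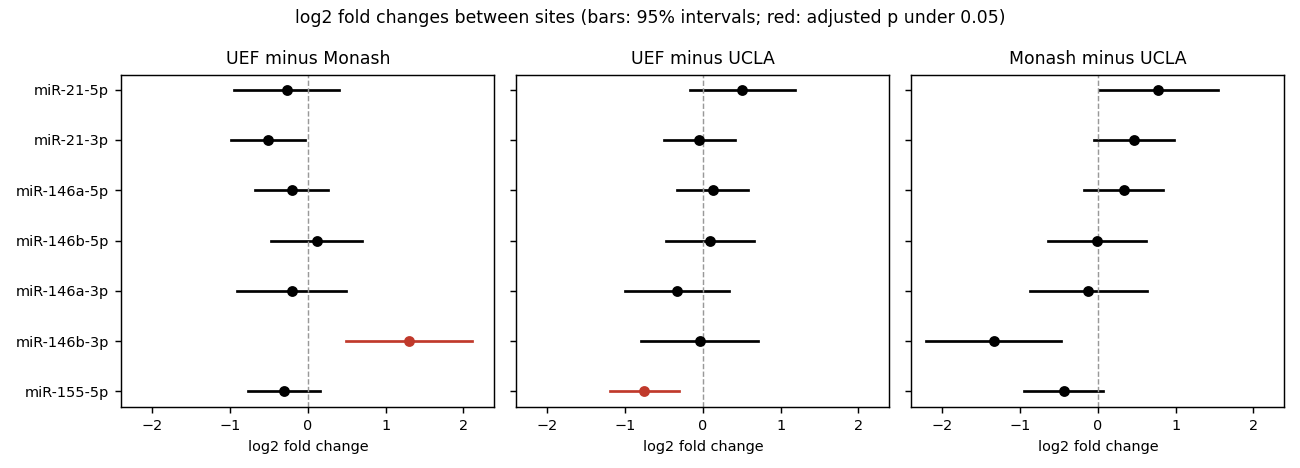
log2 fold changes of 7 members between pairs of sites, with 95% intervals from edgeR; red marks an adjusted p below 0.05. miR-146b-3p is higher at UEF than at Monash (1.30) and miR-155-5p is lower at UEF than at UCLA (-0.75).

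Whether injury acted alike at the 3 sites was tested as an interaction. edgeR called 0 of 8 members and 1.07% of all miRNAs, and 1 member, miR-21-5p, was below 0.05 before adjustment but not after it. This test pooled TBI- and TBI+ rats as injured. Mean CPM of miR-21-5p in sham, TBI- and TBI+ rats was 16679, 8550 and 8764 at UEF. It was 14079, 15991 and 6970 at Monash and 5127, 4965 and 13676 at UCLA. TBI minus sham for miR-21-5p was -0.95 ± 0.38 (SE) on the log2 scale at UEF, -0.19 ± 0.47 at Monash and 0.86 ± 0.47 at UCLA. None was called, in sites where 3.86% (UEF), 0% (Monash) and 0.266% (UCLA) of all miRNAs were. With only miRNAs at 100 or more counts in every rat tested, miR-21-5p was called at UEF (-0.73, edgeR adjusted p = 0.0360). Its CPM in the 4 UEF sham rats was 9107, 13362, 34318 and 9932, against a range of 5206 to 13389 in the 8 UEF TBI rats. Without UEF sham rat 3 the UEF difference was -0.30. At UEF the liver miRNAs made up 1.94% to 24.3% of counts after TBI against 30.5% to 57.5% after sham surgery, without overlap, and red-cell miRNAs 21.95% to 40.7% against 6.82% to 19.9%. Their part in the UEF difference was not tested.

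The outcome groups overlapped over all sites. Within Monash and within UCLA, miR-21-5p, miR-146a-5p, miR-146a-3p and miR-146b-3p separated them in CPM, in opposite directions at these sites. In unscaled shares of counts miR-146a-5p did not separate them at either site. The comparison of outcome within sites was added after the values had been seen. The test of whether TBI+ minus TBI- differed between sites called miR-21-5p (edgeR adjusted p = 0.0237) and miR-146b-3p (adjusted p = 0.00343), 2 of 8 members where 9.05% of all miRNAs were called. It rests on 2 to 4 rats per group.

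At UCLA, miR-21-5p was at 16578, 13629 and 10822 CPM in the TBI+ rats and at 5329, 5549 and 4017 CPM in the TBI- rats. At Monash it was at 6759 and 7182 CPM in the TBI+ rats and at 16494, 15871 and 15608 CPM in the TBI- rats. The groups did not overlap at either site, and the higher group was TBI+ at UCLA and TBI- at Monash. At UEF the TBI+ rats (8076, 9380, 11959 and 5642 CPM) and the TBI- rats (5206, 13389, 6497 and 9108 CPM) overlapped. TBI+ minus TBI- was 1.46 ± 0.44 (SE) on the log2 scale at UCLA (edgeR adjusted p = 0.0437), -1.20 ± 0.50 at Monash (adjusted p = 0.154) and 0.036 ± 0.38 at UEF (adjusted p = 0.997). The same order held in unscaled shares of counts. At UCLA miR-21-5p made up 0.777% to 1.32% of counts in TBI+ and 0.448% to 0.590% in TBI- rats, and at Monash 0.833% and 0.995% against 1.26% to 1.82%.

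miR-146b-3p showed the reverse order. At UCLA it was at 7.71, 9.40 and 11.1 CPM in the TBI+ rats and at 27.5, 30.5 and 50.0 CPM in the TBI- rats. At Monash it was at 27.0 and 16.8 CPM in the TBI+ rats and at 8.30, 8.01 and 5.49 CPM in the TBI- rats. TBI+ minus TBI- was -1.93 ± 0.51 (SE) on the log2 scale at UCLA (edgeR adjusted p = 0.0186) and 1.58 ± 0.57 at Monash (adjusted p = 0.0834). With miR-28-3p as the library size the UCLA call was lost (-2.25, adjusted p = 0.124). At UEF it was 0.59 ± 0.41 (adjusted p = 0.997), and -0.19 without UEF TBI+ rat 4, which had 82.4 CPM.

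Among the UCLA rats 2 of 8 members were called, miR-21-5p and miR-146b-3p, where 6.66% of all miRNAs were. At Monash 0 of 8 were called against 8.52% of all miRNAs, and at UEF 0 of 8 against 0%. The remaining members were not called by edgeR in the test of the difference between sites. miR-155-5p was at 407 and 433 CPM in the Monash TBI+ rats and at 842, 631 and 932 CPM in the TBI- rats, against 2016, 1190 and 938 CPM in TBI+ and 949, 736 and 818 CPM in TBI- rats at UCLA (edgeR adjusted p = 0.103 for the difference between sites, and 0.0218 with DESeq2, which called it). miR-146a-5p moved by 0.88 ± 0.38 on the log2 scale at UCLA and -0.53 ± 0.42 at Monash (adjusted p = 0.222 for the difference between sites). In CPM its outcome groups did not overlap at either site. At UCLA they lay at 10909 to 19811 CPM in TBI+ and 5869 to 10512 CPM in TBI- rats. At Monash they lay at 9367 and 10625 CPM against 12932 to 16503 CPM. In unscaled shares of counts they overlapped at both sites. The shares were 1.06% to 1.42% in TBI+ and 0.689% to 1.12% in TBI- rats at UCLA. At Monash they were 1.31% and 1.30% against 1.11% to 1.89%. miR-146a-3p ran the other way, as miR-146b-3p did, with -1.12 ± 0.55 at UCLA and 1.12 ± 0.62 at Monash (adjusted p = 0.163). Its outcome groups did not overlap at either site, with 3.76 to 8.06 CPM in TBI+ and 8.95 to 18.1 CPM in TBI- rats at UCLA. At Monash it was at 8.80 and 12.9 CPM against 3.93 to 6.22 CPM.

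Several calls lost significance when 1 rat was left out. The outcome-by-site call of miR-21-5p was lost without Monash TBI+ rat 1, Monash TBI+ rat 2 or UCLA TBI- rat 3 (edgeR adjusted p 0.0745 to 0.0824), while that of miR-146b-3p was kept in all 29 such fits. Within UCLA, the miR-21-5p call was lost in 9 of 29 fits (log2 fold change 1.27 to 1.55, adjusted p 0.0503 to 0.194): without UEF TBI+ 2, Monash TBI- 1, Monash TBI+ 1 or 2, any UCLA TBI- rat, or UCLA TBI+ 1 or 2. The miR-146b-3p call was lost in 4 of 29 (-2.11 to -1.62, adjusted p 0.0608 to 0.134): without UCLA TBI- 3 or any UCLA TBI+ rat. At Monash miR-146b-3p was called without UEF TBI+ 2 or 4 (adjusted p 0.0336 and 0.0412).

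Measures of the libraries moved with these groups. The number of miRNAs at 10 or more counts was 704, 688 and 701 in the UCLA TBI+ rats and 733, 726 and 733 in the TBI- rats. TMM factors at UCLA were 0.718 to 0.968 in TBI+ and 0.840 to 1.17 in TBI- rats. Muscle miRNAs summed to 0.0519% to 0.0853% of counts in UCLA TBI+ and 0.0313% to 0.0355% in TBI- rats, while red-cell, platelet and myeloid, lymphocyte, liver and brain sums overlapped. At Monash TMM factors were 1.23 and 1.39 in TBI+ and 0.805 to 1.14 in TBI- rats, without overlap. The Monash totals were 1320300 and 1722453 in TBI+ and 2343627 to 3395469 in TBI- rats, liver miRNAs summed to 9.55% and 10.2% against 2.62% to 6.73%, and platelet and myeloid miRNAs to 4.62% and 4.99% against 5.51% to 11.3%. Their part in the differences was not tested.

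**Figure D4:**
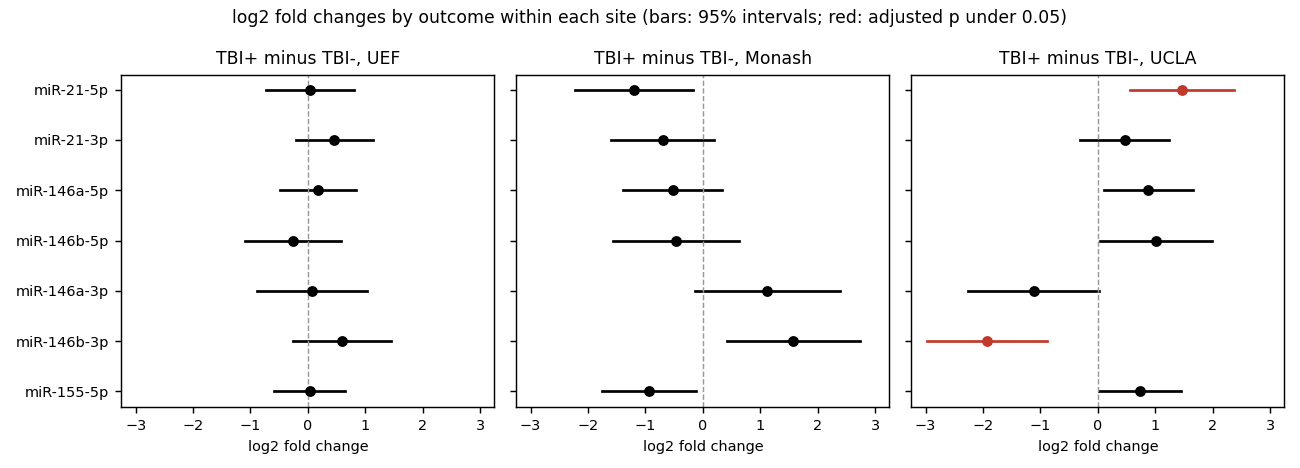
log2 fold changes of 7 members, TBI+ minus TBI-, within UEF, Monash and UCLA, with 95% intervals from edgeR; red marks an adjusted p below 0.05. miR-21-5p and miR-155-5p are positive at UCLA and negative at Monash, and miR-146b-3p is negative at UCLA and positive at Monash.

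Ratios of 2 miRNAs within a rat do not depend on the library size, so the balance of arms and of the miR-146 pair was compared with the log2 ratio of counts (0.5 added to each). miR-21-5p exceeded miR-21-3p by a median of 8.14 on the log2 scale over the 29 rats (6.52 to 10.5). miR-146a-5p exceeded miR-146a-3p by 10.4 (8.32 to 12.5) and miR-146b-5p exceeded miR-146b-3p by 5.98 (3.22 to 8.62). miR-146a-5p exceeded miR-146b-5p by 3.06 (2.12 to 3.58), an 8.31-fold median excess in counts.

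Of 15 exact permutation tests (3 ratios by 5 comparisons, two-sided), none passed after adjustment. The ratio of miR-146a-5p to miR-146b-5p averaged 3.25 ± 0.20 (SD, n = 8) at Monash, 2.95 ± 0.36 (SD, n = 12) at UEF and 2.93 ± 0.31 (SD, n = 9) at UCLA. The difference was -0.31 for UEF minus Monash (exact p = 0.0400, adjusted p = 0.300) and 0.32 for Monash minus UCLA (exact p = 0.0272, adjusted p = 0.300). The arm ratio of miR-21 was 8.01 ± 0.68 (SD, n = 19) in TBI and 8.27 ± 1.05 (SD, n = 10) in sham rats, a difference of -0.25 (exact p = 0.441, adjusted p = 0.827). Within sites that difference was 0.39 for UCLA, 0.15 for Monash and -1.02 for UEF. The arm ratio of miR-155 rests on listed zeros in 15 rats and gave adjusted p between 0.827 and 0.996.

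The arm ratios of miR-146a and miR-146b were looked at after the values had been seen and are given without a test. At UCLA the log2 ratio of miR-146b-5p to miR-146b-3p was 7.39 to 8.62 in TBI+ and 3.32 to 5.98 in TBI- rats. At Monash it was 5.50 and 5.79 in TBI+ and 7.15 to 8.10 in TBI- rats. For miR-146a it was 11.2 to 11.7 against 8.32 to 10.2 at UCLA, and 9.65 and 10.0 against 11.1 to 11.8 at Monash. The outcome groups did not overlap at either of these sites, in opposite directions, in both hairpins.

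**Figure D5:**
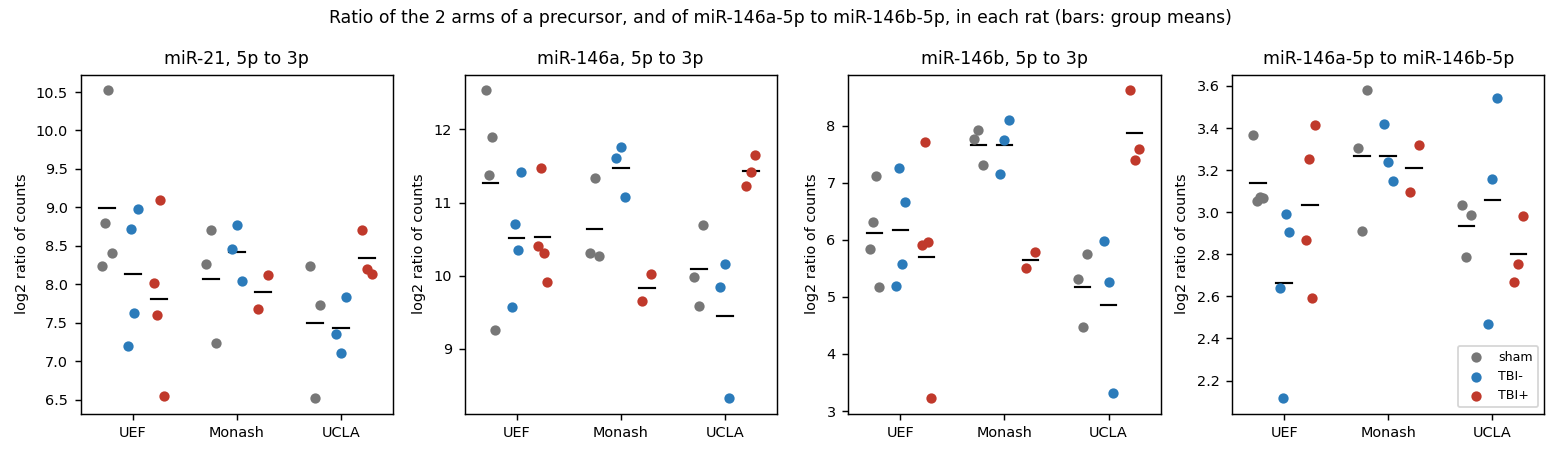
log2 ratio of counts in each of the 29 rats, by site and coloured by condition, for the 2 arms of miR-21, miR-146a and miR-146b and for miR-146a-5p to miR-146b-5p; horizontal bars are group means. For miR-146a and miR-146b the TBI+ rats lie above the TBI- rats at UCLA and below them at Monash, while the ratio of miR-146a-5p to miR-146b-5p stays between 2.12 and 3.58 throughout.

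The level of each member was also compared with that of its partner and of other miRNAs across rats. miR-146a-5p and miR-146b-5p varied together, with Pearson's r = 0.827 and Spearman's rho = 0.833 over 29 rats (permutation p = 1e-05 for each, the smallest that 100000 resamples can give, adjusted p = 9e-05 over 9 relations). Without the 2 rats farthest from the median r was 0.822, and within sites it was 0.928 for UCLA, 0.906 for Monash and 0.784 for UEF. These values share the library scaling, and the correlation was not particular to the pair. Spearman's rho was higher for miR-146a-5p with miR-29b-3p (0.897) and for miR-146b-5p with miR-29a-3p (0.882). The arms of miR-21 and of miR-155 were compared in the same way. For miR-21-5p and miR-21-3p r was 0.210 and rho 0.241 (permutation adjusted p = 0.613 and 0.539), -0.502 within UEF, 0.50 within Monash and 0.549 within UCLA, and r was 0.0988 without the 2 farthest rats. For miR-155-5p and miR-155-3p r was -0.252 and rho -0.207 (permutation adjusted p = 0.563 and 0.539), with the zeros of miR-155-3p included. As a description with no test, Spearman's rho between the arms was -0.555 for miR-146a and -0.422 for miR-146b.

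miR-146b-5p also varied with the log2 ratio of miR-451-5p to miR-23a-3p, a hemolysis marker that rises as red cells lyse. This ratio ran from -3.57 to -0.873 over all rats. The study measured the same pair by qPCR in the sequenced samples and read the result as no hemolysis in any of them. By its other hemolysis assay, the absorbance of the pooled plasma, samples from Monash and UCLA were among those slightly above its acceptance limit. Pearson's r was 0.503 (permutation adjusted p = 0.0238) and Spearman's rho 0.452 (adjusted p = 0.0667), and r was 0.458 within UEF, 0.743 within Monash and 0.522 within UCLA. Without the 2 farthest rats r was 0.386. For the 5 other members tested against this ratio r lay between -0.153 and 0.148, with permutation adjusted p of 0.664 or more.

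As a description over the 29 rats, in which all values share the library scaling, the miRNAs most like each member were named by Spearman's rho of log2 CPM. They were miR-30e-5p (0.867) and miR-101a-3p (0.858) for miR-21-5p, miR-29b-3p (0.897) and miR-24-3p (0.868) for miR-146a-5p, and miR-29a-3p (0.882) and miR-15b-5p (0.880) for miR-146b-5p. For miR-155-5p they were the 2 arms of miR-140, miR-140-5p (0.688) and miR-140-3p (0.687). Among the 3p arms they were miR-17-2-3p (0.770) and miR-124-5p (0.726) for miR-21-3p, miR-136-5p (0.633) and miR-463-3p (0.601) for miR-146a-3p, miR-6326 (0.848) and miR-666-5p (0.831) for miR-146b-3p, and miR-463-5p (0.660) and miR-3084a-5p (0.654) for miR-155-3p. Among the members, miR-21-5p and miR-146a-5p ranked the rats alike (0.790), and miR-146b-3p ranked them in reverse order to miR-21-5p (-0.804) and miR-146a-5p (-0.734).

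A list of 26 other miRNAs known from NF-kB, Toll-like receptor and leukocyte biology was examined, all of them tested. It gave 0 called for TBI against sham (1.2% of all miRNAs) and 0 for TBI+ against TBI- (0%). Its median log2 fold change was 0.14 for TBI against sham and 0.083 for TBI+ against TBI-, against 0.025 and -0.0021 over all miRNAs. The lowest p for TBI against sham belonged to miR-223-5p, from neutrophils and other myeloid cells (0.68 ± 0.22 (SE), edgeR adjusted p = 0.139), and to miR-9a-5p, a brain miRNA (0.54 ± 0.20, adjusted p = 0.224). For TBI+ against TBI- it belonged to miR-203a-3p and miR-147.

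Between the 3 sites together 7 of the 26 were called (14.8% of all miRNAs): miR-145-5p, miR-210-3p, miR-17-5p, miR-181b-5p, miR-142-5p, miR-223-5p and miR-203a-3p. At UEF the myeloid miRNAs miR-223-3p, miR-223-5p and miR-142-5p were lower than at Monash (log2 fold changes -0.82, -0.86 and -0.86, edgeR adjusted p = 0.0456, 0.0374 and 0.0359). They were the 3 of the 26 called there, where 9.99% of all miRNAs were. For UEF against UCLA 6 of the 26 were called, where 9.32% of all miRNAs were. miR-145-5p, a smooth-muscle miRNA, was higher at UEF by 2.16 (edgeR adjusted p = 0.000301) and miR-199a-5p by 0.92. miR-17-5p, miR-181a-5p, miR-181b-5p and miR-210-3p were lower at UEF by 0.62 to 0.88 in size. In the outcome-by-site test, where 9.05% of all miRNAs were called, 1 of the 26 was, miR-142-5p of leukocytes. It was higher in TBI+ than in TBI- rats at UCLA by 1.18 ± 0.32 (SE) on the log2 scale (edgeR adjusted p = 0.0236) and lower at Monash (-1.17 ± 0.37, adjusted p = 0.0483), the same order as miR-21-5p. At each of these sites it was the 1 of the 26 called, where 6.66% (UCLA) and 8.52% (Monash) of all miRNAs were.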

How the data were processed

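The data were miRNA counts from small-RNA sequencing of plasma of 29 rats. The deposited matrix holds raw counts per mature miRNA as whole numbers without normalization. Per the study's methods and the submitters' processing notes, libraries with unique molecular identifiers were made by a service provider, and the authors trimmed the reads with cutadapt, aligned them with Bowtie to Rnor_6.0 and annotated them with miRBase. Whether reads of 1 molecule were merged is not stated. Reads with very short inserts were discarded, and counts between 0 and 5 are rare in the matrix, which limits values for scarce arms.

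Groups followed the labels. The members and gene lists were chosen with earlier results of these data known. The members were named by their stems, and for each the 2 miRNAs with the highest Spearman correlation were named. Of the list of other inflammation miRNAs, those past the test or, failing that, the 2 with the lowest p were named.

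Counts were tested with edgeR 4.0.16 (R 4.3.3, limma 3.58.1): filterByExpr with a minimum count of 10, TMM scaling, a quasi-likelihood F test of a model with site and condition, and Benjamini-Hochberg adjustment over 751 miRNAs at 0.05. The contrast of TBI with sham over all sites used the mean of TBI- and TBI+. The injury-by-site test and TBI minus sham within sites used a model of site, injury and their interaction, which pooled TBI- and TBI+. Standard errors are the log2 fold change divided by the square root of F, and log2 CPM used a prior count of 2. Whether 48-h values differed by outcome within sites used a model with 1 mean per site and condition, added after values were seen. Ratios were tested by exact enumeration of all regroupings, also for TBI against sham, where 100000 resamples had been planned. Correlations used 100000 resamples. p-values measure the spread between rats. Alternatives were DESeq2 1.42.0, other scalings (DESeq2 size factors, upper quartile, miR-28-3p), other count filters, other covariates, a replicate block, sites or conditions left out, and each rat left out. In simulated counts the fit recovered 82.5% of 200 miRNAs changed 2-fold between TBI and sham. It recovered 77% between TBI+ and TBI- and 74% between UEF and UCLA. These shares hold for that setting, with 200 of 751 miRNAs changed, no other group difference and miRNAs drawn independently. They do not give the chance of finding a change in the members. Other steps ran in scipy 1.17.1, pandas 2.3.3 and numpy 2.4.6 under Python 3.11.15, with plots from matplotlib 3.10.9.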

Additional observations from a re-analysis of the deposited data

Results flagged for a closer look

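In the outcome-by-site comparison, added after the values had been seen, the difference between TBI+ and TBI- rats differed between the 3 sites for miR-21-5p (edgeR adjusted p = 0.0237) and for miR-146b-3p (adjusted p = 0.00343). For both, the TBI+ and TBI- rats did not overlap at UCLA or at Monash, and the order at one site was the reverse of that at the other.

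A single rat lay far from the rest of its group in 4 of 56 groups of 4 to 10 rats examined, and chance marks about 1 in 20. miR-21-3p was at 23.0 CPM in UEF sham rat 3, where the nearest other UEF sham rat had 29.2 CPM. UEF sham rat 3 also had the smallest TMM factor (0.333). miR-21-3p was at 17.9 CPM in UEF TBI- rat 4, where the nearest other had 31.6 CPM. miR-146a-3p was at 6.22 CPM in UEF TBI+ rat 2, where the nearest other had 8.31 CPM. miR-155-5p was at 2016 CPM in UCLA TBI+ rat 1, where the nearest other UCLA rat had 1190 CPM, and the call of this miRNA between UEF and UCLA was lost without that rat.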

How the results depend on the processing

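With the 3 sites in 1 model, no member was called for TBI against sham or for TBI+ against TBI- under any of the alternatives run. Within UEF, miR-21-5p was called for TBI against sham with 100 counts or more required in every rat (-0.73, adjusted p = 0.0360). The counts behind miR-146a-3p and miR-146b-3p limit their precision, and miR-155-3p could not be compared. Only the 5p arms had 100 or more counts in every rat, so the 3p arms have no value under that stricter filter. The calls of miR-146b-3p are absent there because it was not tested. The number of miRNAs tested under that filter is not given here, so its counts cannot be read as shares. Replicate numbers did not pair the rats: of 28 pairs with the same number at a site, 7 had a correlation above 0.1, with a median of -0.013. A slash below means minus, and apart from those absent calls the cause of each change was not tested. With DESeq2, miRNAs called numbered 25 (TBI/sham), 20 (TBI-/sham), 12 (TBI+/sham), 17 (TBI by site) and 109 (outcome by site). With DESeq2, members called numbered 1 (Monash/UCLA). With DESeq2 size factors, miRNAs called numbered 2 (TBI by site). In TBI rats alone, miRNAs called numbered 40 (3 sites together), 0 (UEF/Monash), 40 (UEF/UCLA) and 23 (Monash/UCLA). In TBI rats alone, members called numbered 0 (3 sites together), 0 (UEF/Monash) and 0 (UEF/UCLA). In TBI rats alone, the sign turned for miR-146a-3p, UEF/Monash (0.089), miR-21-5p, UEF/UCLA (-0.032), miR-21-3p, UEF/UCLA (0.018), miR-146a-5p, UEF/UCLA (-0.045) and miR-146b-3p, UEF/UCLA (0.43). With 100 counts or more required in every rat, miRNAs called numbered 19 (TBI/sham), 3 (TBI-/sham), 26 (UEF/Monash) and 5 (outcome by site). With 100 counts or more required in every rat, members called numbered 0 (UEF/Monash), 2 (UEF/UCLA), 1 (Monash/UCLA) and 1 (outcome by site). With 100 counts or more required in every rat, the sign turned for miR-155-5p, TBI+/TBI- (-0.026), miR-146a-5p, TBI/sham at UEF (0.017), miR-155-5p, TBI/sham at UEF (0.063) and miR-155-5p, TBI/sham at UCLA (-0.17). With scaling to miR-28-3p, miRNAs called numbered 0 (TBI-/sham), 0 (TBI+/sham), 18 (UEF/Monash) and 45 (outcome by site). With scaling to miR-28-3p, members called numbered 0 (3 sites together), 0 (UEF/Monash) and 1 (Monash/UCLA). With scaling to miR-28-3p, the sign turned for miR-146a-3p, TBI+/TBI- (0.10), miR-21-3p, UEF/UCLA (0.085), miR-146b-5p, Monash/UCLA (8.5e-05), miR-146b-5p, TBI+/TBI- at UEF (0.030), miR-146a-5p, TBI/sham at UEF (0.41), miR-155-5p, TBI/sham at UEF (0.42), miR-21-3p, TBI/sham at UCLA (-0.13), miR-146a-3p, TBI/sham at UCLA (-0.015) and miR-155-5p, TBI/sham at UCLA (-0.16). With the hemolysis ratio as covariate, miRNAs called numbered 4 (TBI/sham), 2 (TBI-/sham) and 0 (TBI by site). With the hemolysis ratio as covariate, members called numbered 1 (3 sites together). With the hemolysis ratio as covariate, the sign turned for miR-146a-5p, TBI/sham (-0.029), miR-146b-5p, TBI/sham (-0.12), miR-146b-5p, Monash/UCLA (0.17), miR-146b-5p, TBI+/TBI- at UEF (0.079) and miR-155-5p, TBI+/TBI- at UEF (-0.0051). Without the site or condition covariate, miRNAs called numbered 15 (TBI/sham). Without the site or condition covariate, the sign turned for miR-146b-3p, UEF/UCLA (0.064). With a replicate block, miRNAs called numbered 5 (TBI/sham), 31 (UEF/Monash), 46 (UEF/UCLA) and 0 (TBI by site). With a replicate block, members called numbered 0 (3 sites together), 0 (UEF/Monash) and 0 (UEF/UCLA). With a replicate block, the sign turned for miR-146b-3p, TBI+/TBI- (-0.023). After site and condition were removed, Pearson r of miR-155-5p and miR-155-3p was -0.47 and Pearson r of miR-21-5p and the miR-451-5p to miR-23a-3p ratio was 0.13. In sham rats alone, miRNAs called numbered 66 (3 sites together), 35 (UEF/Monash), 36 (UEF/UCLA) and 21 (Monash/UCLA). In sham rats alone, members called numbered 1 (3 sites together), 0 (UEF/Monash), 0 (UEF/UCLA) and 1 (Monash/UCLA). In sham rats alone, the sign turned for miR-21-5p, UEF/Monash (0.21), miR-146b-5p, UEF/Monash (-0.19), miR-146b-5p, Monash/UCLA (0.51), miR-146a-3p, Monash/UCLA (0.19) and miR-155-5p, Monash/UCLA (0.076). Without Monash, miRNAs called numbered 21 (TBI/sham) and 8 (TBI+/sham). Without Monash, the sign turned for miR-155-5p, TBI/sham (0.044) and miR-146b-3p, TBI+/TBI- (-0.26). Without UCLA, miRNAs called numbered 14 (TBI/sham), 0 (TBI-/sham) and 8 (TBI+/sham). Without UCLA, the sign turned for miR-146a-5p, TBI/sham (-0.079), miR-21-5p, TBI+/TBI- (-0.42), miR-146a-5p, TBI+/TBI- (-0.045), miR-146b-5p, TBI+/TBI- (-0.28), miR-146a-3p, TBI+/TBI- (0.47) and miR-155-5p, TBI+/TBI- (-0.23). Without UEF, miRNAs called numbered 0 (TBI/sham), 0 (TBI-/sham) and 0 (TBI+/sham). Without UEF, the sign turned for miR-21-5p, TBI/sham (0.33), miR-21-3p, TBI/sham (-0.090), miR-146a-3p, TBI/sham (-0.015) and miR-146b-3p, TBI+/TBI- (-0.10). With upper-quartile factors, miRNAs called numbered 3 (TBI-/sham), 46 (UEF/Monash) and 5 (TBI by site). With upper-quartile factors, members called numbered 0 (UEF/Monash). With each rat left out in turn, miRNAs called ran from 1 to 16 (TBI/sham), 1 to 5 (TBI-/sham), 1 to 7 (TBI+/sham), 39 to 117 (UEF/Monash), 25 to 59 (Monash/UCLA) and 0 to 10 (TBI by site). For TBI/sham the count was 1 without UEF sham 4, 5 without UEF sham 2 or 3, 14 without UCLA sham 1 and 16 without Monash sham 2, and for Monash/UCLA it was 25 without Monash sham 3. Members called ran from 0 to 2 (3 sites together), 0 to 1 (UEF/Monash), 0 to 1 (UEF/UCLA), 0 to 1 (Monash/UCLA) and 1 to 2 (outcome by site). log2 fold changes that turned sign ran from -0.35 to 0.083 (miR-21-5p, TBI/sham), -0.15 to 0.13 (miR-146a-3p, TBI+/TBI-), -0.16 to 0.49 (miR-146b-3p, TBI+/TBI-), -0.071 to 0.21 (miR-155-5p, TBI+/TBI-), -0.088 to 0.24 (miR-146b-5p, UEF/Monash), -0.15 to 0.020 (miR-21-3p, UEF/UCLA), -0.045 to 0.24 (miR-146b-5p, UEF/UCLA), -0.25 to 0.14 (miR-146b-3p, UEF/UCLA), -0.16 to 0.16 (miR-146b-5p, Monash/UCLA), -0.25 to 0.065 (miR-146a-3p, Monash/UCLA), -0.14 to 0.29 (miR-21-5p, TBI+/TBI- at UEF), -0.075 to 0.33 (miR-146a-5p, TBI+/TBI- at UEF), -0.43 to 0.11 (miR-146b-5p, TBI+/TBI- at UEF), -0.14 to 0.29 (miR-146a-3p, TBI+/TBI- at UEF), -0.19 to 0.92 (miR-146b-3p, TBI+/TBI- at UEF), -0.070 to 0.11 (miR-155-5p, TBI+/TBI- at UEF), -0.31 to 0.10 (miR-146a-5p, TBI/sham at UEF), -0.24 to 0.14 (miR-155-5p, TBI/sham at UEF), -0.32 to 0.014 (miR-21-5p, TBI/sham at Monash), -0.46 to 0.17 (miR-146b-5p, TBI/sham at Monash), -0.10 to 0.57 (miR-21-3p, TBI/sham at UCLA), -0.053 to 0.39 (miR-146a-3p, TBI/sham at UCLA) and -0.063 to 0.32 (miR-155-5p, TBI/sham at UCLA). Differences of log2 ratios that turned sign or side ran from -0.53 to 0.37 (miR-155-5p to miR-155-3p, UEF/UCLA), -0.045 to 0.090 (miR-146a-5p to miR-146b-5p, UEF/UCLA), -0.049 to 0.31 (miR-21-5p to miR-21-3p, UEF/Monash), -0.13 to 0.18 (miR-21-5p to miR-21-3p, TBI+/TBI-), -0.062 to 0.10 (miR-146a-5p to miR-146b-5p, TBI+/TBI-) and 0.26 to 0.40 (miR-146a-5p to miR-146b-5p, Monash/UCLA).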
